A study of Rattus norvegicus with 6 samples.

Results

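The genes described here are the solute carrier (Slc) genes detected in HEI-OC1 cells, an established auditory line derived from the organ of Corti. They were chosen by their mean level: protein-coding rows with a symbol made of Slc, a family number, a letter and a member number, and a mean of at least 1 CPM over all 6 libraries, where CPM is a gene's counts scaled to a common library total. Of 296 such rows among 18718 rows in all, 173 reached that level, and 166 remained after the 8 genes that the rule leaves out by name, 7 of which had a row. Because the choice used the mean level, levels are given as a description. The level limit does not use the difference between the groups, but the genes left out by name were named with results of these data known, and they include the 1 Slc gene called by edgeR. In 3 libraries AUF1, the product of Hnrnpd, was knocked down, with titles that name an siRNA to HNRNPD (siHnrnpd 1 to 3), and 3 libraries titled SiNC carry the genotype control (control 1 to 3). AUF1 binds AU-rich stretches of mRNAs and influences how fast they decay. Both groups are the same cell line grown at 37 °C in DMEM with fetal bovine serum and antibiotics, and no time after knockdown is given.

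Solute carriers are membrane proteins that move ions, sugars, amino acids, nucleotides, vitamins and metals across the plasma membrane and the membranes of organelles. They do not split ATP themselves. They work by facilitated diffusion, by exchange of one solute for another, or by coupling to a gradient such as that of sodium or protons. In the inner ear, carriers of potassium, chloride, glutamate and bicarbonate are known for their part in keeping the composition of the cochlear fluids and in clearing transmitter from hair cell synapses.

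The libraries held 28984535 to 35842904 gene counts, and the Slc genes took 0.865% to 0.906% of them. Hnrnpd, listed as Hnrpd, had 187 ± 12.2 CPM in siHnrnpd and 297 ± 25.9 CPM in control libraries (SD, n = 3 each), so the siHnrnpd mean was 62.8% of the control mean. Over all genes, 10 of 12268 passed edgeR's quasi-likelihood test after Benjamini-Hochberg adjustment (adjusted p under 0.05). Whether replicates were separate cultures is not stated in the labels, and the p-values here rest on library-to-library spread that could be technical. In the tested Slc genes the extreme library was most often control 1, the lowest in 50 and the highest in 47 of 166 genes. Next came siHnrnpd 1, the highest in 43. Of all 12268 genes tested, control 1 was likewise the lowest in 3072 and the highest in 2941, and siHnrnpd 1 the highest in 2779. The order was thus not particular to the Slc genes, although these shares of all genes were somewhat smaller. Of 10 hair cell markers, 6 had a row and 1, Myo6, reached 1 CPM, so defining markers of hair cells such as Myo7a, Otof and Gfi1 were at or near 0. Of 8 fibroblast and mesenchymal markers, 6 reached 1 CPM, with a summed level of 6779 to 8139 CPM in siHnrnpd and 6670 to 7154 CPM in control libraries. Most of that sum was Vim and Col1a1, at means of 4013 and 2601 CPM in siHnrnpd and 4018 and 2093 CPM in control libraries. Col3a1 and Pdgfrb had control means of 588 and 224 CPM. Those of Lum, Col1a2, Dcn and Postn were only 8.17, 3.16, 0.159 and 0.202 CPM. Of 10 supporting cell markers, 5 reached 1 CPM, with a summed level of 108.1 to 145.1 CPM in siHnrnpd and 121.4 to 131.8 CPM in control libraries. Of the tested markers 1 of 6 fibroblast (16.7%) and 2 of 5 supporting cell genes (40.0%) had an unadjusted p under 0.05, all higher. Over all genes tested 5.84% were higher at that limit. Of 4 neuron markers 3 had a row and 0 reached 1 CPM. The part of these marker levels in the results on Slc genes was not tested. In bulk RNA, fewer cells of a type and less RNA per cell cannot be told apart.

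The 166 genes belong to 40 families, and 162 of them encode carriers. The other 4 are named for a carrier they bind or lie beside: the PDZ scaffold proteins Slc9a3r1 and Slc9a3r2, the carrier adaptor Slc4a1ap, and Slc7a6os. Levels between genes are compared as FPKM, fragments scaled to gene length and library size, as computed by the authors. The labels give rat as the organism, whereas HEI-OC1 is usually described as murine. Which species the reads came from was not tested. A level compared between genes also depends on how well the reads matched the rat gene models, and so does a level near 0, such as those of hair cell markers. The mean FPKM over the 6 libraries ran from 0.198 to 369, with a median of 7.63. A few genes took most of the signal: the top 10 made up 50.2% of the summed FPKM, 6 genes were at 100 FPKM or more, and 35 were under 2.

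**Figure D1:**
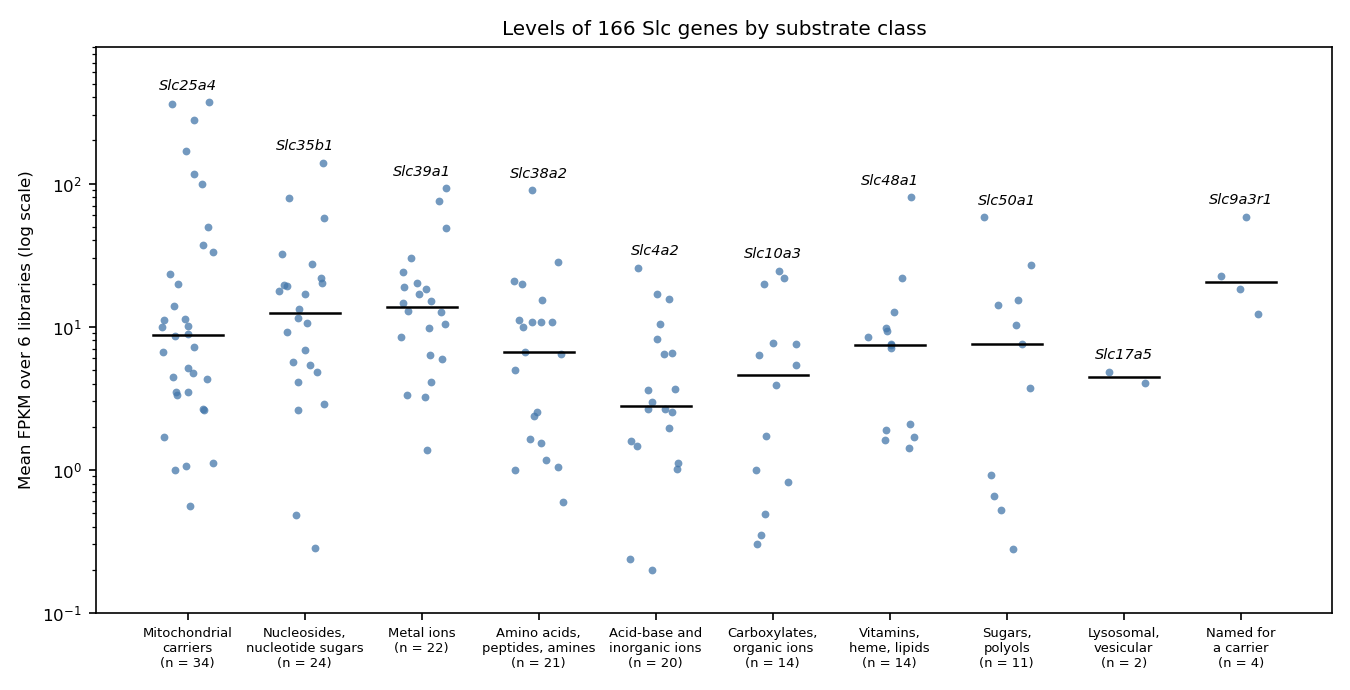
Mean FPKM of each Slc gene over the 6 libraries, on a log scale, by substrate class. Points are genes, horizontal lines are class medians, and the gene with the highest level in each class is named; mitochondrial carriers reach 369 FPKM and the acid-base and inorganic ion class has a median of 2.80.

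Carriers of the inner mitochondrial membrane, the Slc25 family, were the most numerous and the most abundant. The 34 members summed to 1731 FPKM in siHnrnpd and 1633 FPKM in control libraries. Slc25a4 and Slc25a5, adenine nucleotide translocases that exchange ADP for ATP, and Slc25a3, which brings phosphate into the matrix, led the list at 369, 359 and 277 FPKM. Slc25a4 had 397, 370 and 398 FPKM in siHnrnpd 1 to 3, against 337, 342 and 372 FPKM in control 1 to 3. Slc25a5 had 348, 375 and 348 FPKM in siHnrnpd 1 to 3, against 374, 363 and 343 FPKM in control 1 to 3. The order of these translocases was not the same in every library, with a ratio of Slc25a4 to Slc25a5 of 0.987 to 1.14 in siHnrnpd and 0.902 to 1.08 in control libraries, so their levels do not differ beyond the spread. The sequences of these paralogs are similar, and reads may have been split between them. Below them came Slc25a39, an importer of glutathione, at 170 FPKM, the citrate carrier Slc25a1 at 117 FPKM, the oxoglutarate carrier Slc25a11 at 99.3 FPKM and the dicarboxylate carrier Slc25a10 at 49.4 FPKM.

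Outside mitochondria, the highest level was that of Slc35b1, which exchanges ATP for ADP across the endoplasmic reticulum membrane, at 140 FPKM. It belongs to the class of nucleoside and nucleotide sugar carriers, whose next genes were the plasma membrane nucleoside transporter Slc29a1 at 79.2 FPKM and Slc35a4 at 57.7 FPKM. Among 22 carriers of metal ions the zinc importers led, with Slc39a1 at 92.4 FPKM and Slc39a7, which releases zinc from the endoplasmic reticulum, at 75.6 FPKM. Slc11a1, a divalent metal carrier of phagosomes best known from macrophages, followed at 48.8 FPKM. It was above its widely expressed paralog Slc11a2, at 18.3 FPKM, in all 6 libraries. The macrophage markers Ptprc, Csf1r and Adgre1 had at most 3 counts in any library, and Cd68 averaged 1.66 FPKM.

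Slc38a2, a sodium-coupled carrier of small neutral amino acids, was the most abundant of 21 amino acid, peptide and amine carriers at 90.03 FPKM. Slc48a1, which moves heme out of lysosomes, led the vitamin, heme and lipid class at 79.9 FPKM. Slc50a1, a sugar transporter of the SWEET type, led the sugar class at 57.9 FPKM, and the scaffold Slc9a3r1 was at 58.4 FPKM. The chloride-bicarbonate exchanger Slc4a2 led the 20 carriers of acid-base and inorganic ions at 25.7 FPKM. Slc10a3, related in sequence to bile acid transporters, led the 14 carriers of carboxylates and organic ions at 24.5 FPKM. The lysosomal sialic acid exporter Slc17a5 had 4.83 FPKM and was the higher of 2 lysosomal and vesicular carriers.

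At the other end, the members just inside the limit of 1 CPM were the sodium-chloride cotransporter Slc12a3 at 1.01 CPM, the amino acid transporter Slc7a7 at 1.24 CPM and the sodium-bicarbonate cotransporter Slc4a4 at 1.29 CPM. Just outside lay the serotonin transporter Slc6a4 at 0.967 CPM, the sodium-bicarbonate cotransporter Slc4a7 at 0.949 CPM and the sodium-sulfate cotransporter Slc13a4 at 0.903 CPM. In all, 123 Slc rows were under the limit.

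The comparison of the groups asks whether transporter mRNAs change when Hnrnpd is reduced. The Slc genes as a whole stayed centred on 0: 82 (49.4%, background 51.7%) had a log2 change above 0 and 84 one below it. The median was -0.0031, beside 0.0054 over all genes tested. The middle of the distribution ran from -0.14 at the lower to 0.12 at the upper quartile, beside -0.096 and 0.11 over all genes. Over protein-coding genes at 1 CPM or more, a set nearer in level, the quartiles were -0.089 and 0.098, so the Slc genes were spread somewhat wider. The extremes were -0.79 in Slc25a45 and 0.65 in Slc45a1, and 0 of 166 genes differed by 2-fold or more, beside 0.668% of all genes tested, which include genes under 1 CPM. A log2 change of at least 0.25 in either direction was found in 19.9% of the Slc genes and 17.3% of all genes tested. For at least 0.5 the shares were 3.01% and 4.86%. The summed level of the 166 genes was 9200, 9007 and 8773 CPM in siHnrnpd 1 to 3, against 8685, 8815 and 8972 CPM in control 1 to 3, so the groups overlapped.

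By edgeR's quasi-likelihood test 0 of these 166 Slc genes, which do not include the 1 called gene left out by name, were called (adjusted p under 0.05), with a background of 0.0815% over all genes tested, and 0 at an adjusted p under 0.1, with a background of 0.293%. The smallest adjusted p was 0.146. At an unadjusted p under 0.05, 14 Slc genes (8.43%) were higher and 17 (10.2%) lower, against backgrounds of 5.84% and 5.20%. With upper-quartile scaling these counts were 19 higher (11.4%, background 7.02%) and 15 lower (9.04%, background 4.46%), so the background moved in the same directions. Without siHnrnpd 1 the higher count was 8 (4.82%, background 3.94%), and without control 3 it was 24 (14.5%, background 8.84%). Without control 2 the lower count was 11 (6.63%, background 2.88%). The 3 siHnrnpd libraries did not overlap the 3 control libraries in 19 genes that were higher (background 8.42%) and 21 that were lower (background 8.57%), together 24.1% of the Slc genes against a background of 17.0%. Limma-voom called 0 Slc genes, and DESeq2 called 7 of 166 (4.22%, adjusted p under 0.05), of which 4 were higher and 3 lower, against a background of 1.41% of the 11453 genes it tested.

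**Figure D2:**
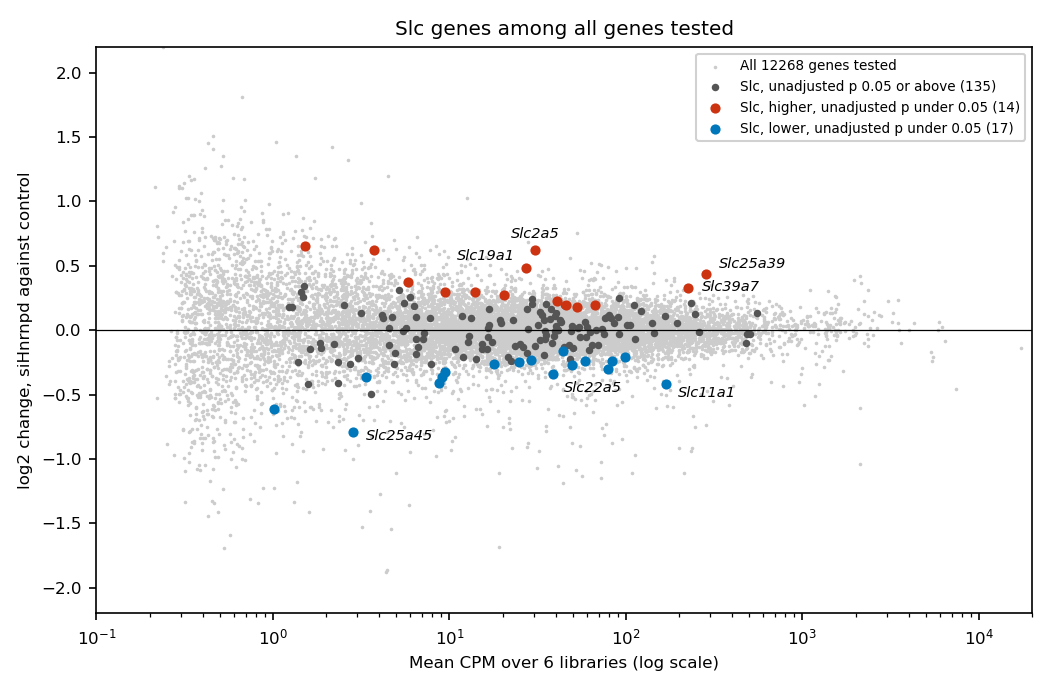
Log2 change of siHnrnpd against control by mean CPM (log scale), with the Slc genes over all 12268 genes tested in grey; 4 genes outside the axis range of 2.2 in either direction are not drawn. The 14 Slc genes in red and 17 in blue have an unadjusted edgeR p under 0.05, and the 7 named genes were called by DESeq2; the Slc genes lie within the cloud of all genes at their level.

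The 7 genes called by DESeq2 serve unlike substrates. Higher with the siRNA were Slc2a5 (ENSRNOG00000017693, chromosome 5), the fructose transporter, Slc19a1 (ENSRNOG00000001232, chromosome 20), the reduced folate carrier, Slc25a39 (ENSRNOG00000020994, chromosome 10), the mitochondrial glutathione importer, and Slc39a7 (ENSRNOG00000000465, chromosome 20), the zinc carrier of the endoplasmic reticulum. Lower were Slc25a45 (ENSRNOG00000030616, chromosome 1), a mitochondrial carrier, Slc11a1 (ENSRNOG00000014956, chromosome 9), the phagosomal metal carrier, and Slc22a5 (ENSRNOG00000008432, chromosome 10), which takes up carnitine. In all 7 the groups did not overlap, and none of them passed edgeR over all genes.

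Slc25a39 had 357, 318 and 314 CPM in siHnrnpd 1 to 3, against 216, 250 and 264 CPM in control 1 to 3. The lowest siHnrnpd library was thus above the highest control library. The difference in log2 was 0.44, SE 0.0887 (edgeR adjusted p = 0.146; DESeq2 adjusted p = 0.0018; 0.0018 to 0.632 over the alternatives). Its paralog Slc25a40 had 11.7, 15.97 and 11.7 CPM in siHnrnpd 1 to 3, against 16.8, 15.9 and 13.3 CPM in control 1 to 3. The groups overlapped in Slc25a40, at a log2 value of -0.22.

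Slc19a1, which takes up reduced folates, had 33.9, 31.4 and 29.4 CPM in siHnrnpd 1 to 3, against 19.8, 23.0 and 24.96 CPM in control 1 to 3. The groups did not overlap, and the difference in log2 was 0.48, SE 0.0995 (edgeR adjusted p = 0.155; DESeq2 adjusted p = 0.00707; 0.00707 to 0.666 over the alternatives). The proton-coupled folate transporter Slc46a1 was also higher in every siHnrnpd library, at 5.51, 3.86 and 4.29 CPM in siHnrnpd 1 to 3, against 2.83, 3.21 and 2.85 CPM in control 1 to 3. Its log2 value of 0.62 did not pass (edgeR adjusted p = 0.261).

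Slc2a5 had 30.8, 34.0 and 46.6 CPM in siHnrnpd 1 to 3, against 22.8, 24.7 and 24.8 CPM in control 1 to 3. The siHnrnpd libraries were all above the controls, with siHnrnpd 3 well above the other siHnrnpd libraries. The difference in log2 was 0.62, SE 0.138 (edgeR adjusted p = 0.175; DESeq2 adjusted p = 0.00218; 0.00218 to 0.666 over the alternatives), and it ran from 0.42 to 0.74 when single libraries were left out. The sugar carrier Slc45a1 had the largest positive log2 value among the members, 0.65, at 1.86 ± 0.139 CPM in siHnrnpd and 1.18 ± 0.129 CPM in control libraries (SD, n = 3 each; edgeR adjusted p = 0.285). Slc2a12, another hexose transporter, had a log2 value of -0.26 with overlapping groups.

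Slc39a7 had 272, 250 and 225 CPM in siHnrnpd 1 to 3, against 190, 200 and 207 CPM in control 1 to 3. The groups did not overlap, with a log2 difference of 0.32, SE 0.0801 (edgeR adjusted p = 0.209; DESeq2 adjusted p = 0.032; 0.032 to 0.748 over the alternatives). The most abundant zinc importer, Slc39a1, had a log2 value of -0.017, and the plasma membrane zinc importer Slc39a6 one of -0.21 with no overlap of the groups (edgeR adjusted p = 0.341).

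Slc11a1 had 156, 145 and 131 CPM in siHnrnpd 1 to 3, against 175, 194 and 209 CPM in control 1 to 3. All siHnrnpd libraries were below all controls. The difference in log2 was -0.42, SE 0.0896 (edgeR adjusted p = 0.171; DESeq2 adjusted p = 0.00303; 0.00303 to 0.666 over the alternatives). The summed level of 4 macrophage markers was 2.143 to 2.541 CPM in siHnrnpd and 2.482 to 2.712 CPM in control libraries. Slc11a2 had a log2 value of -0.070, and the ratio of Slc11a1 to Slc11a2 in FPKM was 2.27 to 2.39 in siHnrnpd and 2.73 to 3.25 in control libraries.

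Slc22a5 had 35.5, 36.4 and 31.0 CPM in siHnrnpd 1 to 3, against 45.4, 44.4 and 40.4 CPM in control 1 to 3. Every siHnrnpd library was below every control, with a log2 difference of -0.34, SE 0.0833 (edgeR adjusted p = 0.209; DESeq2 adjusted p = 0.0497; 0.0497 to 0.768 over the alternatives). Slc25a45, a low gene with 2.37, 2.02 and 1.87 CPM in siHnrnpd 1 to 3, against 3.14, 3.46 and 4.21 CPM in control 1 to 3, had the largest negative log2 value among the members. That value was -0.79, SE 0.174 (edgeR adjusted p = 0.175; DESeq2 adjusted p = 0.0497; 0.0342 to 0.666 over the alternatives).

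**Figure D3:**
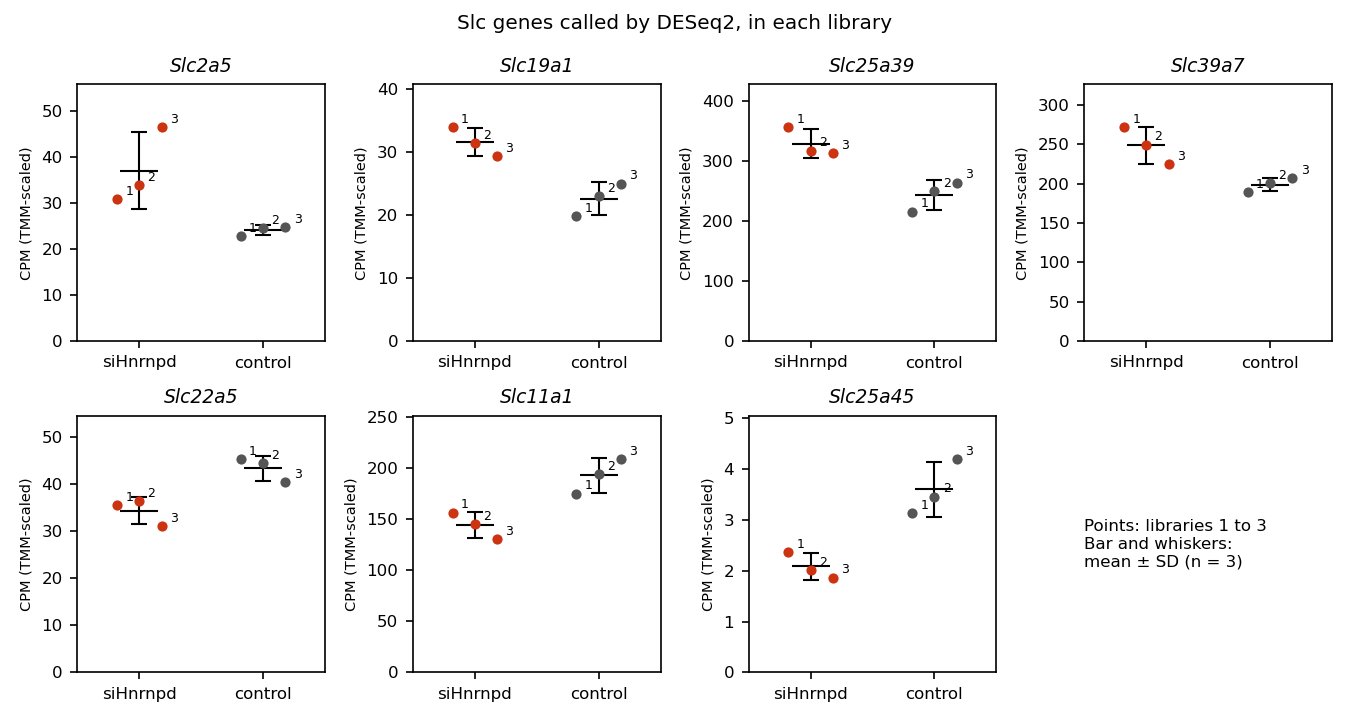
Level in CPM after TMM scaling of the 7 Slc genes called by DESeq2, in each library. Points are libraries 1 to 3 of each group, bars and whiskers are the mean ± SD (n = 3); the groups do not overlap in any of the 7 genes, and siHnrnpd 3 lies apart at 46.6 CPM in Slc2a5.

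By substrate class, at most 5 genes in either direction had an unadjusted p under 0.05, and 0 genes of any class were called by edgeR over all genes. The shares given for each class rest on few genes and stand against backgrounds of 5.84% higher and 5.20% lower. Among 34 mitochondrial carriers 3 were higher (8.82%) and 5 lower (14.7%), with a median log2 change of 0.0020. The higher ones were Slc25a39, Slc25a35 and Slc25a37, and the lower ones Slc25a45, the oxoadipate carrier Slc25a21, Slc25a14, the ornithine carrier Slc25a15 and Slc25a28. Slc25a37 and Slc25a28 are mitoferrins, which bring iron into mitochondria. Slc25a37 had 23.0, 24.99 and 18.9 CPM in siHnrnpd 1 to 3, against 18.4, 17.5 and 19.4 CPM in control 1 to 3. Slc25a28 had 60.0, 49.7 and 52.3 CPM in siHnrnpd 1 to 3, against 59.6, 65.7 and 65.8 CPM in control 1 to 3. The groups overlapped in each of these mitoferrins, at log2 values of 0.27 and -0.24. The ratio of Slc25a28 to Slc25a37 in FPKM was 2.07 to 2.90 in siHnrnpd and 3.37 to 3.92 in control libraries. As both genes were singled out after their opposite values were seen, that separation partly follows from the choice. Of other ratios taken, that of Slc39a7 to Slc30a7 overlapped, at 4.25 to 5.28 in siHnrnpd and 4.02 to 4.38 in control libraries. The ratio of Slc12a2 to Slc12a4 overlapped too, at 0.298 to 0.396 in siHnrnpd and 0.358 to 0.49 in control libraries. That of Slc25a39 to Slc25a40 met at 23.2, its lowest siHnrnpd and highest control value. The 3 most abundant mitochondrial carriers had log2 values of 0.13 (Slc25a4), -0.028 (Slc25a5) and -0.10 (Slc25a3), where the edgeR adjusted p was 0.495, 0.914 and 0.560.

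Of 24 carriers of nucleosides, nucleotide sugars and acetyl-CoA, 1 was higher (4.17%) and 4 lower (16.7%), with a median of 0.017. Slc35c2, a Golgi protein related to the GDP-fucose transporter, had 43.9 ± 1.80 CPM in siHnrnpd and 37.5 ± 3.63 CPM in control libraries (SD, n = 3 each). Lower were Slc35b4, a carrier of UDP-xylose and UDP-N-acetylglucosamine, Slc35f5, Slc35g1 and the nucleotide sugar carrier Slc35d2. Slc35b4 had 74.6, 72.2 and 81.5 CPM in siHnrnpd 1 to 3, against 88.4, 92.2 and 88.6 CPM in control 1 to 3 (log2 value -0.24, edgeR adjusted p = 0.295). Slc35d2 and Slc35g1 had log2 values of -0.33 and -0.37 at means of 8.43 and 2.96 CPM in siHnrnpd against 10.6 and 3.82 CPM in control libraries.

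Metal ion carriers had a median of 0.011, with 1 of 22 higher (Slc39a7, 4.55%) and 2 lower (Slc11a1 and Slc39a6, 9.09%). Among amino acid, peptide and amine carriers, 1 of 21 was higher and 1 lower (4.76% each), with a median of 0.037. Slc38a10 had 71.7 ± 3.34 CPM in siHnrnpd and 62.6 ± 1.12 CPM in control libraries, and Slc1a3, the glial glutamate and aspartate transporter, had 45.1 ± 1.48 CPM in siHnrnpd and 54.4 ± 3.90 CPM in control libraries (SD, n = 3 each). The groups did not overlap in either gene, and the log2 values were 0.19 (edgeR adjusted p = 0.337) and -0.27 (edgeR adjusted p = 0.264). Slc38a2, the most abundant of the class, had a log2 value of -0.033.

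In the vitamin, heme and lipid class 3 of 14 were higher (21.4%) and 1 lower (7.14%), with a median of -0.0060. The higher ones were the folate carriers Slc19a1 and Slc46a1 and the riboflavin carrier Slc52a3, whose log2 value was 0.37 with overlapping groups. The lower one was Slc44a1, a choline carrier, with 66.2, 68.8 and 78.4 CPM in siHnrnpd 1 to 3, against 96.0, 83.8 and 83.4 CPM in control 1 to 3 (log2 value -0.30, edgeR adjusted p = 0.295). Sugar carriers had 2 of 11 higher (Slc2a5 and Slc45a1, 18.2%) and 1 lower (Slc2a12, 9.09%), with a median of 0.085. Carboxylate and organic ion carriers had 2 of 14 higher (14.3%: Slc16a13, of the monocarboxylate transporter family, and Slc10a3) and 1 lower (Slc22a5, 7.14%). Their median was -0.10, with 10 of 14 negative and 28.6% positive (background 51.7% positive).

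Acid-base and inorganic ion carriers had 0 of 20 higher and 2 lower (10.0%), with a median of -0.014. Both lower ones belong to the cation-chloride cotransporters: Slc12a3, at 0.801 ± 0.185 CPM in siHnrnpd and 1.23 ± 0.133 CPM in control libraries, and the potassium-chloride cotransporter Slc12a7, at 22.8 ± 0.837 CPM in siHnrnpd and 27.0 ± 3.07 CPM in control libraries (SD, n = 3 each). The log2 values were -0.61 (edgeR adjusted p = 0.409) and -0.25 (edgeR adjusted p = 0.381). Of the 6 members of this family, 4 were negative, and the summed level of all 6 was 206.9 to 211.4 CPM in siHnrnpd and 216.0 to 224.2 CPM in control libraries. The most abundant of them, Slc12a4, had a log2 value of 0.0093. Leaving out 1 library moved the log2 value by over 1.5 times in 5 of the 24 Slc genes taken for an unadjusted p under 0.05 without overlap of the groups (genes of similar size that missed either condition, such as Slc4a11 and Slc52a3, were not followed): to -0.15 in Slc12a7 without control 3, to -0.26 in Slc25a21 without siHnrnpd 1, and without control 1 to 0.11 in Slc10a3, 0.19 in Slc25a35 and 0.14 in Slc35c2.

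**Figure D4:**
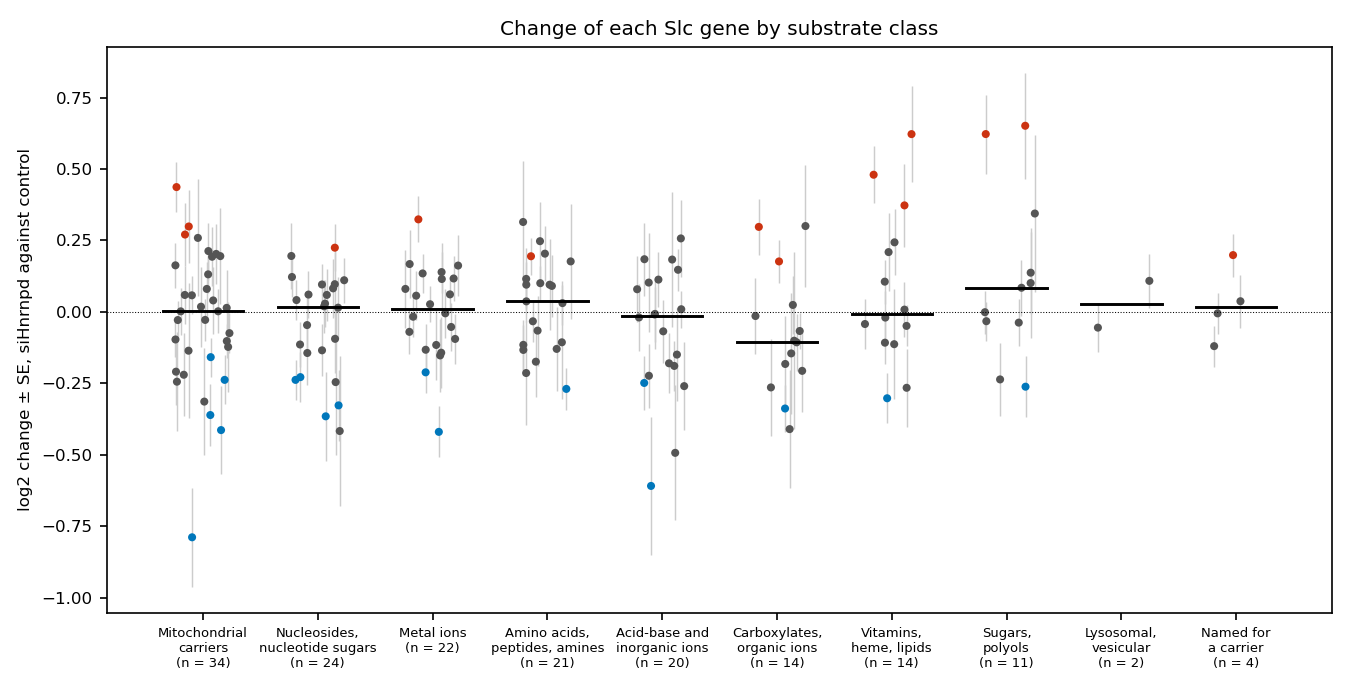
Log2 change ± SE of each Slc gene (siHnrnpd against control) by substrate class. Points in red (14 genes) and blue (17 genes) have an unadjusted edgeR p under 0.05, and horizontal lines are class medians, which lie between -0.10 and 0.085.

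Carriers known for a part in the inner ear were examined as a list of 22 genes, of which 21 had a row and 12 were members. The others had counts close to 0, with the exception of Slc4a7, which lay just under the limit. Whether reads of these genes failed to match the rat gene models was not tested. Prestin (Slc26a5), the motor protein of outer hair cells, had 6 counts over all 6 libraries, and Slc17a8, the vesicular glutamate transporter of inner hair cells, had 4. Pendrin (Slc26a4), a chloride-bicarbonate exchanger whose loss causes deafness, had 11. Of 13 tested genes of the list, 1 was higher with an unadjusted p under 0.05, Slc52a3 (7.69%, background 5.84%). Slc1a3 and Slc12a7 were the 2 lower ones (15.4%, background 5.20%). The median log2 value was -0.15, with 9 of 13 negative and 30.8% positive (background 51.7% positive).

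Some carriers of this list were above the limit. Slc12a2, the sodium-potassium-chloride cotransporter that loads potassium into the stria vascularis, had 39.3, 48.5 and 46.0 CPM in siHnrnpd 1 to 3, against 60.2, 49.6 and 46.5 CPM in control 1 to 3. All siHnrnpd libraries except siHnrnpd 2 lay below the control range, and the log2 value of -0.22 did not pass (edgeR adjusted p = 0.495). Slc4a11, a transporter of the corneal endothelium and inner ear, was at -0.49 in log2 with an SE of 0.236, at a mean of 3.58 CPM (edgeR adjusted p = 0.477). For the thiamine carrier Slc19a2 the value was -0.27 (edgeR adjusted p = 0.504). The zinc carrier Slc30a4, the acetyl-CoA carrier Slc33a1 and the choline transporter-like Slc44a2 had log2 values of -0.15, -0.11 and -0.042. The riboflavin carrier Slc52a2 had a log2 value of 0.24.

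Proteins that partner with or drive solute carriers were examined as a list of 39 genes, 28 of which were tested. With an unadjusted p under 0.05, 4 of these were higher (14.3%, background 5.84%) and 3 lower (10.7%, background 5.20%). EdgeR called 0 of them (background 0.0815%) and DESeq2 called 1, Txnip (background 1.41%). The median log2 value was -0.039. Among the higher ones were Fxyd5, a small membrane protein of the FXYD family, and Slc9a3r2, which is also a member. Fxyd5 had 16.2, 13.2 and 11.2 CPM in siHnrnpd 1 to 3, against 8.48, 8.43 and 12.7 CPM in control 1 to 3, and the groups overlapped (log2 value 0.45, edgeR adjusted p = 0.430). Lower were Txnip, an arrestin-like protein that promotes internalisation of glucose transporters, Emb, a chaperone of monocarboxylate transporters, and Arl6ip1. Txnip had 63.2, 63.5 and 44.4 CPM in siHnrnpd 1 to 3, against 77.4, 74.9 and 76.4 CPM in control 1 to 3, lowest in siHnrnpd 3 (log2 value -0.42, edgeR adjusted p = 0.298). Emb had a log2 value of -0.27, and Bsg, the other chaperone of monocarboxylate transporters and the most abundant gene of the list at 740.3 FPKM, one of 0.13.

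Carriers that have symbols of another form made up a list of 56 genes, 28 of which were tested. EdgeR and DESeq2 called 0 of them (backgrounds 0.0815% and 1.41%). With an unadjusted p under 0.05, 3 were higher (10.7%, background 5.84%) and 2 lower (7.14%, background 5.20%), at a median of 0.026. Higher were the organic anion transporters Slco2a1, which takes up prostaglandins, and Slco3a1, and the phosphate exporter Xpr1. Slco2a1 had 2.05 ± 0.349 CPM in siHnrnpd and 1.18 ± 0.112 CPM in control libraries (SD, n = 3 each; log2 value 0.79, edgeR adjusted p = 0.223). Slco3a1 had 11.4, 10.6 and 18.4 CPM in siHnrnpd 1 to 3, against 8.96, 9.30 and 11.1 CPM in control 1 to 3. Its groups overlapped, and siHnrnpd 3 lay well above the other libraries (log2 value 0.46, edgeR adjusted p = 0.447). Lower were Sfxn4, of the sideroflexins of mitochondria, and Letm1, an ion exchanger of the inner mitochondrial membrane, with log2 values of -0.48 and -0.20. The 7 Slc genes left out of the members by name had mean levels of 20.6 to 315 CPM and log2 changes of -0.27 to 0.56, and 1 of them was called by edgeR.

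The members were also split by level. Of the 83 genes with the higher levels, 7.64 FPKM and above, 47 were positive and 36 negative, with a median log2 change of 0.027. Of the 83 with the lower levels, 35 were positive and 48 negative, with a median of -0.068. The size of the changes was larger at low levels, with a median absolute log2 change of 0.177 in the 83 lower genes and 0.102 in the 83 higher ones, and so was their median SE, at 0.135 against 0.0816.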

How the data were processed

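The authors aligned 150 nt paired reads with TopHat2 to the build mRatBN7.2, per the submitters' processing notes. Because the tables' unplaced contigs carry names from a different rat assembly, coordinates are left out. The counting tool, its strand setting and the gene models: not given in the sources used here. Reads of overlapping or antisense genes therefore cannot be told apart. The deposited tables hold raw read counts for 18718 genes and FPKM computed by the authors for 18628. Columns were matched to samples by siRNA name and replicate number, and 0 stayed unmatched.

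Counts were tested with edgeR 4.0.16 (R 4.3.3): TMM, filterByExpr, quasi-likelihood fit on group, Benjamini-Hochberg over 12268 genes. CPM values in the text are TMM-scaled except those that set the 1 CPM limit. The tests were checked on simulated counts with known changes. Recovery was required only for changes larger than that of any Slc gene here, so passing says nothing of changes of the size reported. Alternatives used DESeq2 1.42.0, limma 3.58.1 (voom, or log2(FPKM + 1) and log2(FPKM + 0.1), which understate changes of low genes), other scalings and filters, the replicate number as a block, and leaving out each library. The biological coefficient of variation was 10.3%, and no pair of libraries agreed within sampling noise. Nor did libraries always lie nearest their own group, by a chi-square of counts over genes per degree of freedom (lower is nearer). SiHnrnpd 2 was nearer to control 1 and 2 (19.8 and 15.6) than to siHnrnpd 1 and 3 (26.1 and 30.4). SiHnrnpd 1 was nearest to control 3 (21.7). Control 1 and 2 were nearest each other (12.6), control 3 to control 2 (17.8), and siHnrnpd 3 to siHnrnpd 2.

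Members, lists and tests were chosen with earlier results of these data known. Named were up to 12 highest and 12 lowest log2 changes at an unadjusted p under 0.05 without overlap, the 15 highest FPKM, the top of each class, neighbours of the 1 CPM limit, inner ear carriers, and partner genes and other carriers at an unadjusted p under 0.05. Not every gene so taken is reported here. Slc25a28, Slc25a37, Slc25a40, Slc25a15, Slc25a10, Slc39a6, Slc30a7, Slc35f5, Slc2a12, Slc11a2, Slc12a4, Bsg, Cd68 and the chromosome counts were singled out after their values were seen.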

Additional observations from a re-analysis of the deposited data

How the results depend on the processing

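Of 166 Slc genes, edgeR called 0, DESeq2 called 7, and edgeR with no filter on low counts called 5, all 5 among the 7 (Slc2a5, Slc19a1, Slc25a39, Slc11a1 and Slc25a45). Over all genes, edgeR called 10 of 12268 with the filter and 147 of 18718 without it. Every other alternative called 0, including those that left out a library (0 to 0). The cause was not tested. With an unadjusted p under 0.05, 14 were higher and 17 lower. On log2(FPKM + 1) with no minimum 22 were higher (13.3%, background 5.41%). Leaving out 1 library gave 8 to 24 higher, and backgrounds of 2.93% to 8.84% over the same settings. It gave 11 to 19 lower, and backgrounds of 2.88% to 6.64%. The ends of a count range and of its background range do not all come from the same library left out. The median log2 change of -0.0031 ran from -0.017 to 0.00049 without 1 library and up to 0.014 on log2(FPKM + 0.1), so its sign is not fixed, and these shifts are within the SD of 0.0175 between libraries. The 24 genes taken for an unadjusted p under 0.05 without overlap kept their sign in all 377 values under the 16 alternatives, and 12 of these values passed an adjusted p under 0.05. Since these 24 were picked for separated groups, their signs were close to fixed by that choice. The kept signs therefore say nothing of how firm these changes are, nor of the other Slc genes. With the replicate number as a block in edgeR, 0 Slc genes were called, and an unadjusted p under 0.05 was found for 10 higher (6.02%, background 4.20%) and 15 lower ones (9.04%, background 4.46%); over all genes the block called 0, against 10 without it. No pairing by number was seen: deviations of same-numbered libraries correlated at -0.353, 0.167 and 0.101, and 2 of 6 libraries correlated best with their own number. With 3 libraries per group, this check cannot exclude a pairing. The SE of a log2 change reached 0.31 in Slc16a14, which had 92, 45 and 45 counts in siHnrnpd and 69, 66 and 48 in control libraries, beside a median of 0.102 over the Slc genes.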

Other observations

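The Slc genes with an unadjusted p under 0.05 were unevenly placed on chromosomes. On chromosome 10, 6 of 17 Slc genes were higher and 1 lower, while 5.51% of all 1070 genes tested there were higher and 5.23% lower. The 6 were Slc25a39, Slc46a1, Slc16a13, Slc25a35, Slc38a10 and Slc9a3r2, and the 1 was Slc22a5. On chromosome 1, 0 of 7 Slc genes were higher and 5 lower (Slc25a45, Slc35g1, Slc2a12, Slc12a7 and Slc25a28), while 6.20% of all 1517 genes tested there were higher and 4.68% lower. These counts were noticed after the values were seen, rest on few genes, and were not tested.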
